A study of Homo sapiens with 12 samples.

Results

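Expression of the genes of MHC class II antigen presentation and of CD1D was examined in THP-1 and U-937 cells, a pair of monocytic acute myeloid leukemia (AML) cell lines, after treatment with honokiol or its solvent. The 9 genes were taken by gene symbol from the 36866 genes of the deposited table, and all 9 were found. They were CIITA, CD74, HLA-DRA, HLA-DRB1, HLA-DPA1, HLA-DPB1, HLA-DMA, HLA-DMB and CD1D. They were selected on their place in these pathways with their FPKM values and fold changes in the 4 groups in view, so their values are given as a description and carry no p-value.

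Poly(A) mRNA was sequenced in 12 libraries, 3 for each of 4 groups. These were THP-1 with 0.1% DMSO, THP-1 with honokiol, U-937 with 0.1% DMSO and U-937 with honokiol, each for 24 h. Honokiol is a lignan from magnolia bark. The labels list 20 and 35 µM honokiol without assigning a dose to a line, so line and dose cannot be told apart. The labels name no genetic change made to either line, and each line is 1 stock. They do not say whether the 3 libraries came from separate cultures, and the study's general statement that experiments were repeated does not say how this applied to the sequencing. All p-values below therefore measure the spread between libraries, which may be technical.

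MHC class II molecules are pairs of an α and a β chain (HLA-DR, HLA-DP, HLA-DQ) that show peptides from endosomes to CD4 T cells. The invariant chain CD74 guides the new pairs to endosomes and fills their groove, and HLA-DM, made of HLA-DMA and HLA-DMB, exchanges the remaining CD74 fragment for peptide. CIITA is the coactivator that switches these genes on together, working with RFX, CREB and NF-Y bound to the X and Y boxes of their promoters. CD1D is a class I-like molecule that pairs with β2-microglobulin and shows lipids to NKT cells, and it is found on monocytes and B cells.

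The promoters are shown because class II genes are known by a shared arrangement of X and Y boxes. RefSeq windows were given for 7 of the 9 genes, and the 250 bases before the start site are printed 5′ to 3′ on the strand of the gene, from build GRCh38.p14. Capitals mark the letters AGCAAC (an X box core) and GATTGG (a Y box core), or GATTGG read on the other strand as CCAATC. The windows of CD74 and CD1D are printed beside those of 3 chain genes because neither word was found in them on either strand. This absence was not particular to them. The first HLA-DPA1 start site and HLA-DQA1, not printed, also held neither word, and the second HLA-DPA1 start site held AGCAAC alone. The RefSeq start sites need not be those of the deposited gene models. The windows are chr6:32589849-32590098 for HLA-DRB1, chr6:33075740-33075989 for HLA-DPB1, chr6:32953098-32953347 for HLA-DMA, chr5:150412911-150413160 for CD74 and chr1:158179697-158179946 for the first CD1D start site, with HLA-DPB1 and CD1D on the plus strand and the others on the minus strand.
HLA-DRB1: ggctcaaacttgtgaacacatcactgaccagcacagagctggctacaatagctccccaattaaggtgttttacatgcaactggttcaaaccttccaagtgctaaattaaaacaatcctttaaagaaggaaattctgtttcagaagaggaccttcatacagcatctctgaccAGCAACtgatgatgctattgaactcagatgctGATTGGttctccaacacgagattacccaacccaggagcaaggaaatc
HLA-DPB1: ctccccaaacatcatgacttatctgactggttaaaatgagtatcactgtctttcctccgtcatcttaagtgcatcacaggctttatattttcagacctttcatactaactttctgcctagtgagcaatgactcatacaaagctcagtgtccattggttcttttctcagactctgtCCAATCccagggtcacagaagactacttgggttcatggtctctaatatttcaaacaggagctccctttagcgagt
HLA-DMA: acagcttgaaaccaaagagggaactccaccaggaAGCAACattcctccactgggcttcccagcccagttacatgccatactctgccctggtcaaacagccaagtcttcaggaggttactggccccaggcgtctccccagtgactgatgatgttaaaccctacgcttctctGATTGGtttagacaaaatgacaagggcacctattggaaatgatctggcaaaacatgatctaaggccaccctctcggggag
CD74: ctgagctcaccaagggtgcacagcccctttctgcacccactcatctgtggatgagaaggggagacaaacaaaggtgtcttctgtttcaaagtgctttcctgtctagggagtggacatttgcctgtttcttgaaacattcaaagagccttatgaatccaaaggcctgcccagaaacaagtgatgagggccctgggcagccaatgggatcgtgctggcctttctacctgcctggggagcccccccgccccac
CD1D: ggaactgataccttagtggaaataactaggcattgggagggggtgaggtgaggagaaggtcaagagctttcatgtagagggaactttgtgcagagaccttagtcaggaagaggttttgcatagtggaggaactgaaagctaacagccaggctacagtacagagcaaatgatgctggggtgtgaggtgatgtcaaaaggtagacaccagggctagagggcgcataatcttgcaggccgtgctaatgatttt

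In the HLA-DRB1 window AGCAAC began 79 bases and GATTGG 47 bases before the start site, with 26 bases between them. The same order and the same 26 bases were found in HLA-DRB5, and 27 bases lay between the words in HLA-DOA. HLA-DMA held GATTGG at 80 bases and AGCAAC at 216 bases before its start, too far apart to count as the pair. HLA-DPB1 held GATTGG only on the other strand, at 75 bases, and so did HLA-DMB, at 22 bases. Only the exact words were searched, so shorter matches were left unmarked. Examples are ATTGG on the gene strand of HLA-DPB1 and its reverse, CCAAT, in the CD74 window. The orientation or absence of a Y box cannot be read from the marks alone. Of 35116 RefSeq promoter windows, 14.1% held GATTGG and 10.3% held AGCAAC on either strand, and 65 (0.185%) held AGCAAC followed by GATTGG within 50 bases on one strand. A match of letters is a description of the window and not of binding.

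Levels are given as FPKM, the number of fragments scaled to transcript length and library depth, as the authors deposited them, and as mean ± SD of 3 libraries. The chains of HLA-DR and the invariant chain were among the most abundant transcripts of THP-1 cells and were lower in U-937 cells. With DMSO, HLA-DRA had 85.6 ± 23.3 FPKM in THP-1 and 0.287 ± 0.338 in U-937, and CD74 had 69.7 ± 1.44 in THP-1 and 3.63 ± 2.09 in U-937. CD1D was the gene that lay higher with honokiol, at 13.9 ± 2.19 FPKM against 4.85 ± 1.09 with DMSO in THP-1 cells. In bulk RNA, fewer cells that express a gene and less RNA per cell cannot be told apart.

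**Figure D1:**
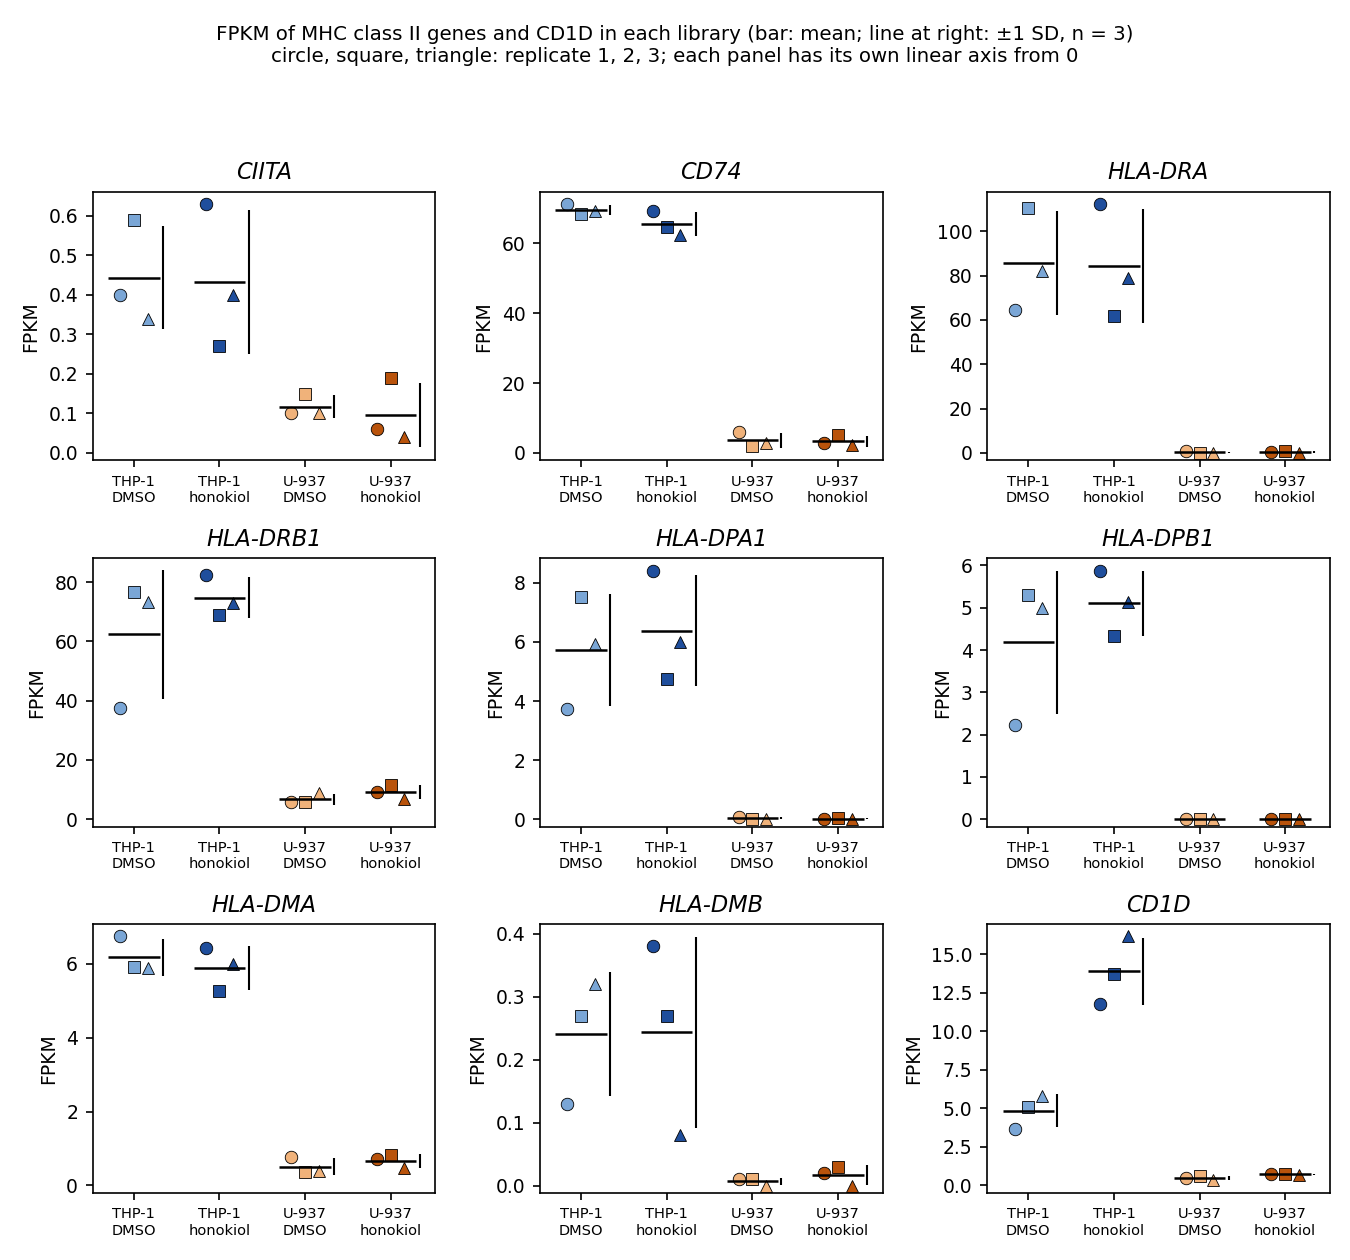
FPKM (linear axis) of the 9 genes in the 12 libraries, by line and treatment. Points are libraries, horizontal bars are means and vertical lines are ±1 SD of 3 libraries. All 9 genes lay higher in every THP-1 library than in every U-937 library, and CD1D was the gene whose honokiol libraries in THP-1 (11.8 to 16.2 FPKM) lay above its DMSO libraries (3.65 to 5.79 FPKM).

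CIITA (chromosome 16, 10866222 to 10943021, plus strand, ENSG00000179583) was low in both lines. Its FPKM with DMSO was 0.40, 0.59 and 0.34 in THP-1 and 0.10, 0.15 and 0.10 in U-937. With honokiol it was 0.63, 0.27 and 0.40 in THP-1 and 0.06, 0.19 and 0.04 in U-937. The honokiol libraries spanned the DMSO libraries in both lines, and the lines did not overlap. CIITA did not reach 0.5 FPKM in 3 libraries of either line and was left out of the fits. It also overlaps DEXI on the opposite strand, and whether counting used strand is not stated.

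CD74 (chromosome 5, 150400041 to 150412769, minus strand, ENSG00000019582) was the steadiest of the abundant genes in THP-1. Its FPKM was 71.3, 68.5 and 69.2 with DMSO and 69.2, 64.8 and 62.5 with honokiol, so that the highest library was 1.14 times the lowest. In U-937 it was 5.98, 1.99 and 2.92 with DMSO and 2.72, 5.03 and 2.20 with honokiol, a 3.01-fold range in which the treatments overlapped. Among genes with at least 0.5 FPKM, CD74 stood at percentiles 96.5 to 97.3 in the THP-1 libraries and at percentiles 28.9 to 59.6 in the U-937 libraries.

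HLA-DRA (chromosome 6, 32439878 to 32445046, plus strand, ENSG00000204287), the single α chain of HLA-DR, had 64.3, 111 and 82.0 FPKM with DMSO and 112, 61.9 and 78.9 FPKM with honokiol in THP-1. The treatments covered almost the same range. In U-937 it had 0.67, 0.03 and 0.16 FPKM with DMSO and 0.20, 0.78 and 0.17 FPKM with honokiol. The highest U-937 library was 26 times the lowest, and this spread did not follow the treatment.

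HLA-DRB1 (chromosome 6, 32578769 to 32589848, minus strand, ENSG00000196126), the main β chain of HLA-DR, had 37.35, 76.6 and 73.2 FPKM with DMSO and 82.3, 68.8 and 73.0 FPKM with honokiol in THP-1. DMSO replicate 1 lay far under the other 5 libraries. In U-937 it had 5.67, 5.66 and 8.73 FPKM with DMSO and 9.06, 11.45 and 6.94 FPKM with honokiol, which overlapped, and it was the most abundant class II chain there. HLA-DRA stood at 0.899 to 1.72 times HLA-DRB1 in the THP-1 libraries and at 0.0053 to 0.118 times HLA-DRB1 in the U-937 libraries. HLA-DRB1 shared 19.5% of the 31-base words of its transcripts with those of HLA-DRB5, and both genes are highly polymorphic, so the split of reads between them is uncertain.

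HLA-DPA1 (chromosome 6, 33064569 to 33080767, minus strand, ENSG00000231389) and HLA-DPB1 (chromosome 6, 33075990 to 33089696, plus strand, ENSG00000223865) encode the α and β chains of HLA-DP. HLA-DPA1 had 3.73, 7.53 and 5.92 FPKM with DMSO and 8.42, 4.73 and 6 FPKM with honokiol in THP-1. HLA-DPB1 had 2.23, 5.31 and 5.00 FPKM with DMSO and 5.87, 4.33 and 5.13 FPKM with honokiol. The chains kept a ratio of 1.09 to 1.67 (HLA-DPA1 over HLA-DPB1) in the THP-1 libraries, and neither separated the treatments. In U-937 HLA-DPA1 reached at most 0.06 FPKM and HLA-DPB1 at most 0.01 FPKM. The genes overlap on opposite strands and share 96 exon bases, 1.67% of HLA-DPA1 and 3.44% of HLA-DPB1.

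HLA-DMA (chromosome 6, 32948613 to 32969094, minus strand, ENSG00000204257) had 6.75, 5.91 and 5.88 FPKM with DMSO and 6.43, 5.26 and 6 FPKM with honokiol in THP-1, a 1.28-fold range. In U-937 it had 0.77, 0.35 and 0.38 FPKM with DMSO and 0.72, 0.81 and 0.46 FPKM with honokiol. The treatments overlapped in both lines. HLA-DMA shares 55 exon bases, 2.17% of its exons, with BRD2 on the opposite strand.

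HLA-DMB (chromosome 6, 32934629 to 32941028, minus strand, ENSG00000242574), the partner chain of HLA-DMA, was low in both lines. It had 0.13, 0.27 and 0.32 FPKM with DMSO and 0.38, 0.27 and 0.08 FPKM with honokiol in THP-1, and at most 0.03 FPKM in U-937. HLA-DMA was 16.9 to 75 times HLA-DMB in THP-1 on the FPKM scale. HLA-DMB, like CIITA, was under the limit for the fits in both lines.

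CD1D (chromosome 1, 158178030 to 158186427, plus strand, ENSG00000158473) had 3.65, 5.11 and 5.79 FPKM with DMSO and 11.8, 13.7 and 16.2 FPKM with honokiol in THP-1. Each honokiol library held at least 2 times the level of each DMSO library, and CD1D stood at percentiles 47.5 to 60.1 of the expressed genes with DMSO and 78.5 to 84.6 with honokiol. In U-937 it had 0.50, 0.62 and 0.34 FPKM with DMSO and 0.73, 0.73 and 0.68 FPKM with honokiol. The groups did not overlap there either, at a level near the lower limit of the fit and on 489 summed counts with DMSO against 4640 in THP-1.

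The comparison of honokiol with DMSO was fitted with edgeR for genes with at least 0.5 FPKM in 3 libraries of a line, 7 of the 9 genes in THP-1 and 4 of the 9 in U-937. Among the class II genes in THP-1 the log2 fold changes ran from −0.15 to 0.26. They were −0.15 (SE 0.126) for CD74, −0.07 (SE 0.25) for HLA-DRA, 0.22 (SE 0.231) for HLA-DRB1, 0.12 (SE 0.276) for HLA-DPA1, 0.26 (SE 0.286) for HLA-DPB1 and −0.13 (SE 0.173) for HLA-DMA. The value was a little over its standard error for CD74 and under it for the other 5. CD1D had a log2 fold change of 1.47 (SE 0.185), 2.77-fold.

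In U-937 the log2 fold changes with honokiol were −0.25 (SE 0.458) for CD74, 0.36 (SE 0.251) for HLA-DRB1 and 0.30 (SE 0.422) for HLA-DMA. CD1D had 0.46 (SE 0.299), 1.38-fold. The standard error of CD74 was several times that in THP-1. CD1D was the gene whose groups did not overlap, 1 of 7 genes fitted in THP-1 and 1 of 4 in U-937, and it lay higher with honokiol in both. Of all genes tested, 13.0% lay higher without overlap for THP-1 and 16.7% for U-937. Over all genes the median log2 fold change was −0.001 for THP-1 and 0.016 for U-937.

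**Figure D2:**
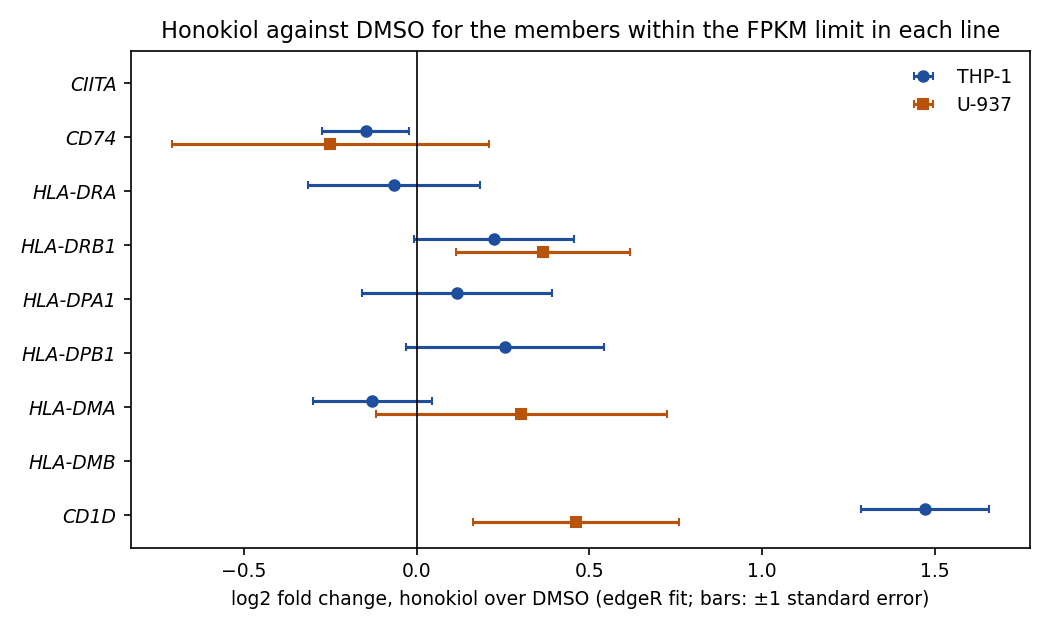
Log2 fold change of honokiol over DMSO from the edgeR fit, with ±1 standard error, for the genes of the group that passed the FPKM limit in THP-1 (circles) and U-937 (squares). CIITA and HLA-DMB have no point. CD1D in THP-1, at 1.47, lies apart from the class II genes, which lie between −0.25 and 0.36 in the 2 lines.

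The responses of the lines were set against each other in one fit of the 12 libraries, as the log2 fold change in U-937 minus that in THP-1. CD1D had −1.02 (SE 0.313), that is, a smaller difference in U-937. The other values were −0.11 (SE 0.523) for CD74, 0.13 (SE 0.351) for HLA-DRB1 and 0.43 (SE 0.445) for HLA-DMA. HLA-DRA had 0.42 (SE 0.994), on 75 summed counts with DMSO and 101 with honokiol in U-937, where it was under the limit for the fit of that line. With single libraries left out its value ran from −0.606 to 2.075. For HLA-DPA1 and HLA-DPB1 the U-937 counts were too few to give a useful value, with standard errors of 1.45 and 1.55. Of all 16283 genes tested, 0.111% differed between the lines at an adjusted p under 0.05. Line and dose cannot be told apart in this comparison.

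Between the lines with DMSO, each of the 9 genes was lower in every U-937 library. The ratio of mean FPKM, THP-1 over U-937, was 3.80 for CIITA, 9.33 for HLA-DRB1, 9.97 for CD1D, 12.4 for HLA-DMA and 19.2 for CD74. It was 299 for HLA-DRA, on 75 summed counts in U-937, and 245 for HLA-DPA1, on 29 summed counts. For HLA-DPB1 and HLA-DMB the U-937 libraries held 4 and 8 summed counts, too few for a ratio. HLA-DPA1 and HLA-DPB1 passed the limit only through the THP-1 libraries. Of the U-937 libraries with DMSO, only replicate 1 reached it for HLA-DRA (0.67 FPKM) and HLA-DMA (0.77 FPKM). For CD1D only replicates 1 and 2 did (0.50 and 0.62 FPKM), so these genes also needed the THP-1 libraries to pass. In this comparison 18.4% of all genes tested were called lower in U-937 and 28.8% were lower without overlap.

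The order of levels in THP-1 with DMSO was HLA-DRA, CD74, HLA-DRB1, HLA-DMA, HLA-DPA1, CD1D, HLA-DPB1, CIITA and HLA-DMB by mean FPKM. The first 3 overlapped in their libraries and so did HLA-DMA with HLA-DPA1, HLA-DPA1 with CD1D and CD1D with HLA-DPB1, while CIITA and HLA-DMB lay apart at the low end. With honokiol CD1D lay above HLA-DPA1, HLA-DMA and HLA-DPB1 without overlap. In U-937 with DMSO the order was HLA-DRB1, CD74, HLA-DMA, CD1D, HLA-DRA, CIITA, HLA-DPA1, HLA-DMB and HLA-DPB1. HLA-DRB1 and CD74 overlapped there, and so did HLA-DMA, CD1D and HLA-DRA, HLA-DRA and CIITA, and the last 3.

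In THP-1 the chains of HLA-DR and HLA-DP were high or low in much the same libraries, and did not split by treatment. Honokiol replicate 1 was the highest and DMSO replicate 2 the second of 6 libraries for CIITA, HLA-DRA, HLA-DRB1, HLA-DPA1 and HLA-DPB1. DMSO replicate 1 was the lowest for HLA-DRB1, HLA-DPA1 and HLA-DPB1, at 0.545, 0.616 and 0.48 times the mean of the line, and the highest for CD74 and HLA-DMA. The summed FPKM of HLA-DRA, HLA-DRB1, HLA-DPA1 and HLA-DPB1 was 108, 200.01 and 166 with DMSO and 209, 140 and 163 with honokiol. In U-937, DMSO replicate 1 and honokiol replicate 2 were the highest pair for CD74, HLA-DRA, HLA-DPA1 and HLA-DMA.

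The share of counts from mitochondrially encoded genes was 13.7% for THP-1 DMSO replicate 1 and 12.6% for its U-937 counterpart, while the other 10 libraries held 5.61% to 7.55%. The part of this in the low HLA-DRB1, HLA-DPA1 and HLA-DPB1 values was not tested. Without THP-1 DMSO replicate 1, the log2 fold change with honokiol was −0.01 for HLA-DRB1, −0.02 for HLA-DPB1 and 1.34 for CD1D.

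**Figure D3:**
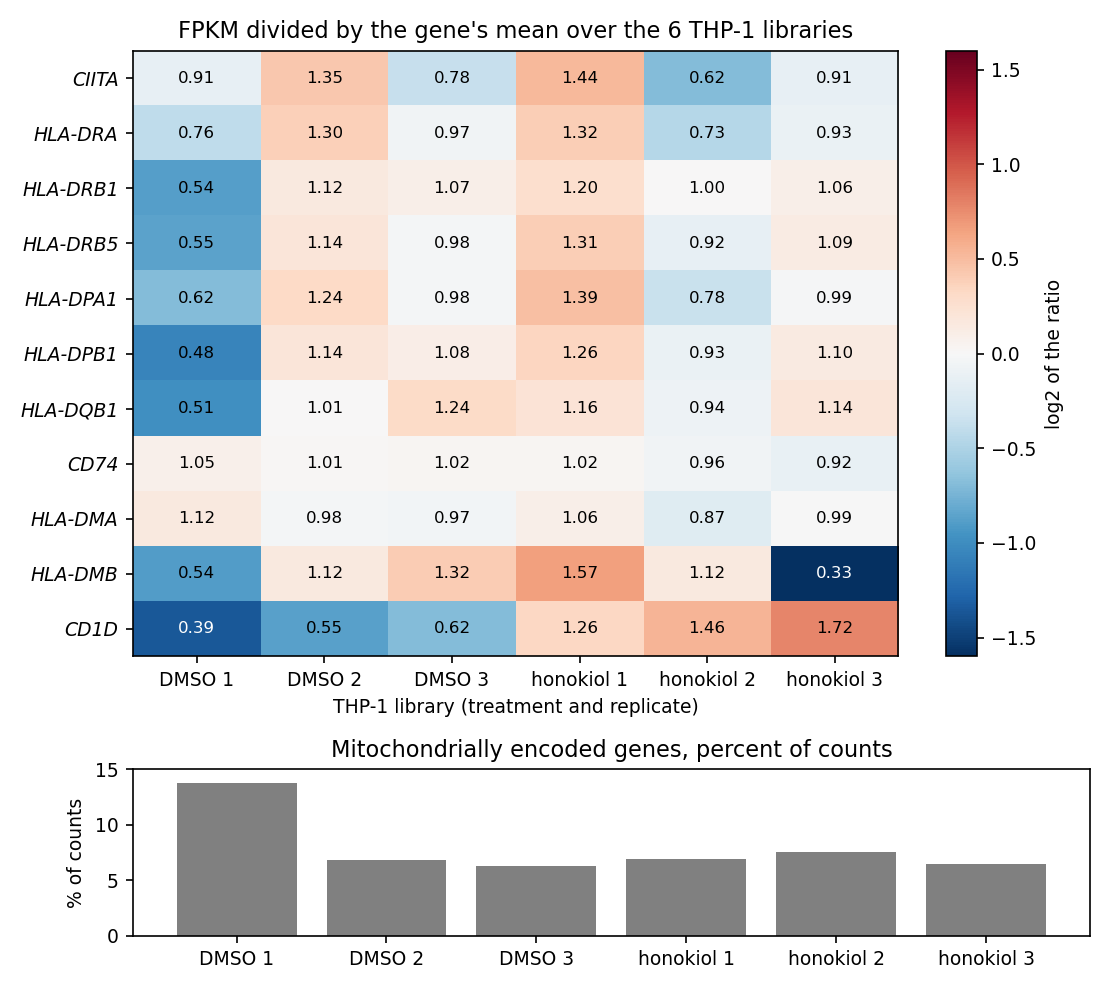
Top, FPKM of each gene divided by its mean over the 6 THP-1 libraries, with colour on a log2 scale. Bottom, percent of counts from mitochondrially encoded genes in the same libraries. For HLA-DRB1, HLA-DPA1 and HLA-DPB1, DMSO 1 is the lowest library and honokiol 1 the highest, CD74 stays between 0.92 and 1.05, and CD1D is the row that splits by treatment.

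Across the 12 libraries the genes most like each of the 9 were found by Pearson's r of log2(FPKM + 0.5) over 11521 genes with a mean of at least 1 FPKM. All points share the split between the lines, and genes are not independent replicates. HLA-DRB1 was most like HLA-DRB5 (r = 0.993), and CD74 had HLA-DRA (0.994) next to CREB3L1 (0.995). HLA-DRA was most like SERPINH1 (0.997) and HLA-DPA1 most like BCAM (0.999). CD1D, whose level also differed by treatment, was most like SLC16A14 (0.994) and CLDN23 (0.991). CIITA had the lowest best match, RCOR2 at 0.952.

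The other genes of the pathways were compared in lists, and calls need an adjusted p under 0.05 (edgeR's quasi-likelihood test, Benjamini-Hochberg over all genes tested) and an absolute log2 fold change over 1. With honokiol the calls came to 0.0411% of all genes for THP-1 and 0.0947% for U-937. Of the listed genes, edgeR called 0 of 73 for THP-1 and 0 of 68 for U-937. DESeq2 called 1 in each line, both higher, CTSL in THP-1 and CTSD in U-937, beside 1.71% and 1.62% of all genes. At an unadjusted p under 0.05, edgeR gave 6.84% of all THP-1 genes as higher and 6.22% as lower, and 8.25% and 8.44% of all U-937 genes.

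Of the other class II chains, 7 of 11 listed genes were in the table and 2 were tested in each line. HLA-DRB5, a β chain of HLA-DR, had 30.2 ± 10.3 FPKM in THP-1 with DMSO and 37.5 ± 6.76 with honokiol, and the log2 fold change was 0.27 (SE 0.247, adjusted p = 0.653, edgeR). HLA-DQB1, the β chain of HLA-DQ, had 3.59 ± 1.47 and 4.24 ± 0.469 FPKM and was listed at 0 in every U-937 library. HLA-DOB, part of the HLA-DM inhibitor HLA-DO, was higher in U-937 among the chains tested, at 0.323 ± 0.25 FPKM in THP-1 and 1.42 ± 0.327 in U-937 with DMSO. HLA-DOB reached the limit in every U-937 library with DMSO and in THP-1 only in DMSO replicate 2 (0.61 FPKM), so its difference is given with no test.

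Of 20 regulators of class II transcription tested in each line, 2 were higher and 1 lower in THP-1 at an unadjusted p under 0.05 (edgeR). In U-937, 3 were higher. Of all genes, 6.84% were higher and 6.22% lower for THP-1, and 8.25% were higher for U-937. The median log2 fold change was −0.12 for THP-1 and 0.07 for U-937. IRF1, a factor of the interferon-γ response that acts on a CIITA promoter, had 3.17 ± 0.301 FPKM in THP-1 with DMSO and 4.92 ± 0.529 with honokiol. Its values were 1.94 ± 0.435 and 3.71 ± 0.242 in U-937. The groups did not overlap in either line, and IRF1 did not pass the correction (adjusted p = 0.216 and 0.144, edgeR). IFNGR1, a chain of the interferon-γ receptor, had 16.5 ± 2.39 FPKM in THP-1 with DMSO and 26.5 ± 5.93 with honokiol (adjusted p = 0.293). The most abundant of the list, the myeloid factor SPI1, differed by less than its spread (96.9 ± 38.8 and 102 ± 16.1 FPKM in THP-1).

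Between the lines with DMSO, 4 of these 20 regulators were lower in U-937, a share near the 18.4% of all genes, and 0 higher by edgeR, where 3 were higher at an unadjusted p under 0.05. Of all genes, 13.9% were called higher in U-937, and 25.4% were higher at an unadjusted p under 0.05. NFYC, a subunit of the Y box factor NF-Y, had 26.8 ± 4.97 FPKM in THP-1 and 7.72 ± 1.22 in U-937 (log2 difference −1.85, adjusted p = 0.000269). JAK2, a kinase of the interferon-γ receptor, had 3.54 ± 0.527 and 1.097 ± 0.29 FPKM (−1.75, adjusted p = 0.000566). The other 2 were RFX5, a subunit of the X box factor RFX (−1.04, adjusted p = 0.000792), and IRF8, a myeloid interferon-regulatory factor (−1.32, adjusted p = 0.00116), which are named because the count is small. The RFX subunits RFXAP (adjusted p = 0.0564) and RFXANK (0.979) did not pass.

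Among the genes of class II processing and traffic, 17 (THP-1) and 13 (U-937) were tested, with medians of 0.05 and 0.41 on the log2 scale. At an unadjusted p under 0.05 (edgeR), 4 were higher in THP-1 and 6 in U-937, beside 6.84% and 8.25% of all genes. In either line 0 were lower, beside 6.22% of all genes for THP-1 and 8.44% for U-937. CTSL, an endosomal cysteine protease able to cleave the invariant chain, had 47.4 ± 13.4 FPKM in THP-1 with DMSO and 146 ± 49.1 with honokiol. Its log2 fold change was 1.57 (SE 0.291, adjusted p = 0.134, edgeR), past the threshold with DESeq2 and without honokiol replicate 1. In U-937 CTSL was at most 0.33 FPKM and was not tested.

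CTSD, an endosomal aspartic protease, had 297 ± 82.8 and 552 ± 65 FPKM in THP-1 and 513 ± 105 and 1122 ± 151 FPKM in U-937. The treatments did not overlap in either line, and the adjusted p was 0.176 and 0.0798 (edgeR). IFI30, a thiol reductase that reduces disulphide bonds of antigens, stood apart between the lines, at 5.70 ± 1.70 FPKM in THP-1 and 65.4 ± 35.9 in U-937 with DMSO (log2 difference 3.47, adjusted p = 0.000175). It was the 1 gene of its list called higher in U-937, where 5 of 16 were called lower, beside 13.9% and 18.4% of all genes. Of these 5, CTSL and the tetraspanins CD9 and CD81 (CD81 at 21.6 ± 5.48 and 0.0833 ± 0.0208 FPKM) passed the limit only through the THP-1 libraries, which fixes their direction (CD9 is named after its values were seen).

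Of the CD1 family, CD1A and CD1C were in the table at no more than 0.07 FPKM in any library, so that CD1D was the only member of this family above 0.5 FPKM among those in the table. Of the CD1 and lipid loading list, 10 genes were tested in each line. At an unadjusted p under 0.05 (edgeR), 3 were higher in THP-1, beside 6.84% of all genes. In U-937, 3 were higher and 1 lower, beside 8.25% and 8.44% of all genes. Without overlap, 6 lay higher in THP-1, and 3 lay higher and 1 lower in U-937. Of all THP-1 genes 13.0% lay higher without overlap. Of all U-937 genes 16.7% lay higher and 7.50% lower without overlap. The medians were 0.25 and 0.15 on the log2 scale. PPARG, a nuclear receptor of lipid metabolism that is known to raise CD1D in dendritic cells, had 7.26 ± 0.639 and 11.99 ± 1.97 FPKM in THP-1 (adjusted p = 0.174) and 2.41 ± 0.299 and 4.21 ± 1.38 FPKM in U-937 (adjusted p = 0.246).

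The saposin precursor PSAP and the GM2 activator GM2A encode proteins that load lipids. PSAP had 281 ± 78.7 and 428 ± 40 FPKM in THP-1 and 84.7 ± 21.4 and 152 ± 37.1 FPKM in U-937, without overlap (adjusted p = 0.31 and 0.185, edgeR). GM2A had 29.9 ± 4.16 and 41.8 ± 4.58 FPKM in THP-1 and 13.6 ± 1.36 and 23.0 ± 0.297 FPKM in U-937 (adjusted p = 0.289 and 0.0711). Between the lines with DMSO, 3 of 10 genes of this list were called lower in U-937 and 1 higher, beside 18.4% and 13.9% of all genes. PSAP, PPARG and GM2A were the lower ones. The lysosomal cholesterol transporter NPC1 was the higher one (3.32 ± 0.26 and 15.5 ± 2.58 FPKM, log2 difference 2.17, adjusted p = 5.45e-05, edgeR).

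For class I presentation, 19 genes (THP-1) and 18 genes (U-937) were tested, and 4 were higher and 0 lower at an unadjusted p under 0.05 in each. Of all genes, 6.84% were higher and 6.22% lower for THP-1, and 8.25% and 8.44% for U-937. The medians were 0.23 and 0.28 on the log2 scale. ERAP1, the aminopeptidase that trims class I peptides, had 14.9 ± 2.95 and 25.3 ± 1.53 FPKM in THP-1 and 4.60 ± 0.601 and 9.46 ± 0.318 FPKM in U-937 (adjusted p = 0.162 and 0.0624, edgeR). Between the lines 9 of 19 were called lower in U-937 and 0 higher, beside 18.4% and 13.9% of all genes. At an unadjusted p under 0.05 (edgeR) 0 were higher, beside 25.4% of all genes. PSMB9, an immunoproteasome subunit, had a log2 difference of −2.31 (adjusted p = 0.000875, edgeR). HLA-F, at 2.69 ± 0.656 FPKM in THP-1 and 0.25 ± 0.0265 in U-937, was 1 of the 9 and passed the limit only through the THP-1 libraries.

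B2M, the light chain of CD1D and of class I molecules, is named outside the rule, after its values were seen. It had 162, 184 and 207 FPKM with DMSO and 180, 188 and 191 FPKM with honokiol in THP-1, where CD1D differed and B2M overlapped. In U-937 it had 63.6, 69.4 and 61.7 FPKM with DMSO and 87.2, 12.5 and 94.2 FPKM with honokiol. Honokiol replicate 2 of U-937 lay far under the others for B2M, while the same library was the highest of its line for HLA-DRA, HLA-DRB1, HLA-DMA and CIITA.

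Of the costimulation genes, 4 were tested in each line, with CD58 (4.15 ± 0.866 and 2.54 ± 0.342 FPKM, adjusted p = 0.296) and CD40 (7.36 ± 1.26 and 5.74 ± 0.643 FPKM, adjusted p = 0.369) lower at an unadjusted p under 0.05 in THP-1. In U-937, ICOSLG had 5.54 ± 0.857 and 4.09 ± 0.195 FPKM (adjusted p = 0.159) and CD86 0.677 ± 0.384 and 1.73 ± 0.996 FPKM (adjusted p = 0.283, edgeR). Of the class II binders CD4 was the gene tested, at 109 ± 17.4 FPKM in THP-1 and 29.1 ± 2.66 in U-937 with DMSO (log2 difference −1.95, adjusted p = 5.45e-05), and its log2 fold change with honokiol was 0.09 and 0.03. In the comparison of the responses between the lines, 0 of 75 listed genes passed the threshold with edgeR, DESeq2 or limma, and at an unadjusted p under 0.05 edgeR gave 4 listed genes with the higher value in U-937 and 4 with the lower. Of all genes 4.82% and 4.54% did.

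**Figure D4:**
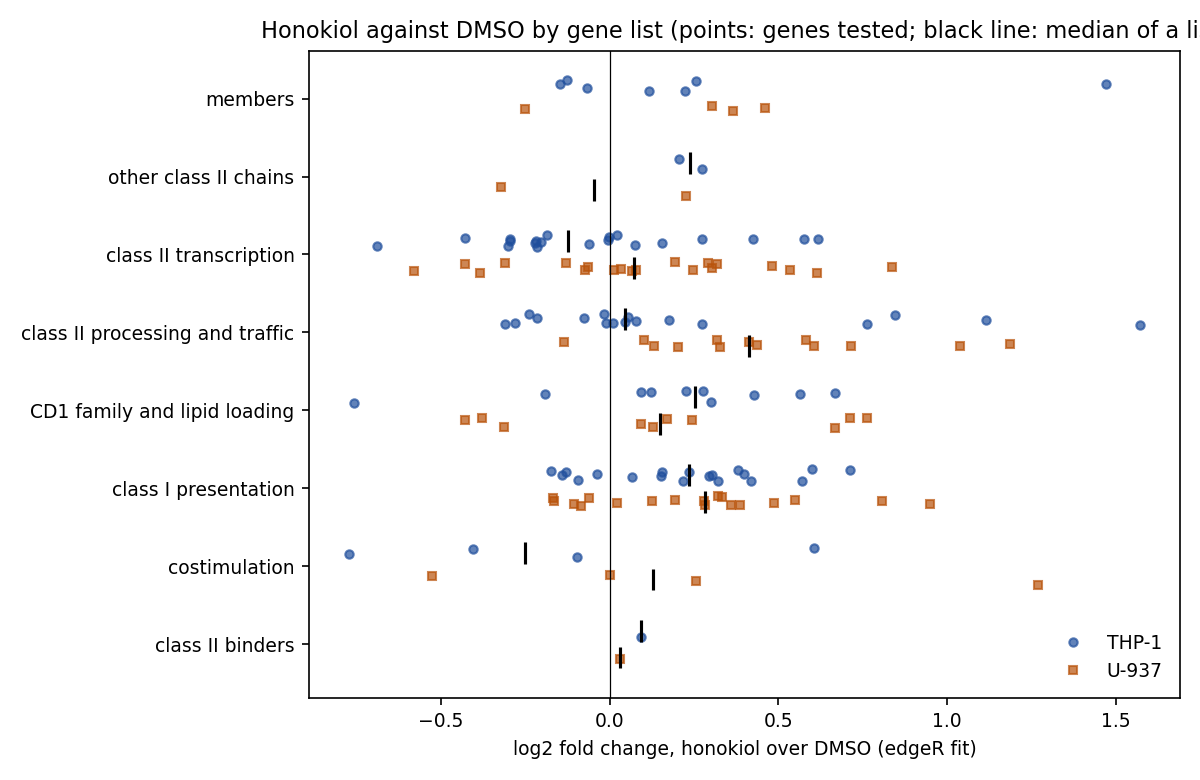
Log2 fold change of honokiol over DMSO from the edgeR fit for each gene tested, by list, in THP-1 (circles) and U-937 (squares). Black lines are the medians of the lists, which run from −0.25 to 0.41. CD1D is the rightmost circle of the members, at 1.47, and CTSL that of the processing list, at 1.57.

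The labelled cell type was set against marker genes. All 11 monocytic and myeloid markers had at least 0.5 FPKM in every THP-1 library, and 9 of 11 did in every U-937 library with DMSO, where MPO (0.06 to 0.10 FPKM) and CD14 (0.17 to 1.14 FPKM) did not. With DMSO their summed FPKM ranged from 4675 to 5450 for THP-1 and from 627 to 1018 for U-937. The THP-1 sum was mostly S100A9 (2169 ± 197 FPKM) and CTSG (1991 ± 317). Of the 11 markers 9 were called lower in U-937 with DMSO and 2 higher, beside 18.4% and 13.9% of all genes. The 2 higher were LYZ (121 ± 21.5 and 489 ± 176 FPKM) and CD33 (5.03 ± 0.155 and 11.8 ± 1.09). MPO, among the 9, passed the limit only through the THP-1 libraries, which fixes its direction. With honokiol the sum was 3654 to 4909 for THP-1 and 489 to 536 for U-937. The U-937 sum was mostly LYZ (282 ± 52.4 FPKM with honokiol) and CTSG (205 ± 20.5 with DMSO and 121 ± 36.5 with honokiol), while ITGAM lay higher with honokiol there, at 2.64 ± 0.408 and 4.58 ± 0.813 FPKM without overlap. The part of these markers in the values of the class II genes was not tested. CD14 itself had 2.61 ± 0.676 FPKM in THP-1 with DMSO and 6.06 ± 2.34 with honokiol, without overlap (adjusted p = 0.228, edgeR). CTSG went the other way there, at 1991 ± 317 and 1289 ± 247 FPKM, also without overlap (adjusted p = 0.238, edgeR). At an unadjusted p under 0.05 (edgeR), 1 of 11 markers was higher and 2 were lower with honokiol in THP-1, beside 6.84% and 6.22% of all genes. In U-937, 1 of 10 markers tested was higher and 3 were lower, beside 8.25% and 8.44% of all genes.

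Of the 4 B cell markers in the table, all 4 had at least 0.5 FPKM in every THP-1 library and 3 in every U-937 library with DMSO. Their sum with DMSO ranged from 17.1 to 29.4 FPKM for THP-1 and from 4.48 to 5.71 FPKM for U-937. Most of it in THP-1 was CD79B, at 16.6 ± 6.43 FPKM, which was at 0 in U-937 with DMSO. The 4 dendritic cell markers in the table summed to 1.87 to 2.21 FPKM in THP-1 and 0.14 to 0.32 FPKM in U-937 with DMSO. With honokiol they summed to 1.37 to 2.07 FPKM in THP-1 and 0.2 to 0.31 FPKM in U-937. XCR1 was at 0 in THP-1 and LAMP3 at 0 in U-937 with either treatment. The T and NK cell markers summed to 11.1 to 22.1 FPKM in THP-1 and 134 to 162 FPKM in U-937 with DMSO. With honokiol they summed to 14.8 to 23.4 FPKM in THP-1 and 156 to 208 FPKM in U-937. Nearly all of these sums was NKG7, while CD3D, CD3E and CD8A were at 0 in U-937. Fibroblast and epithelial markers reached at most 1.87 FPKM and the 3 erythroid markers in the table at most 0.44 FPKM in sum in any library of either treatment. The part of any of these lists in the class II values was not tested.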

How the data were processed

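Each library's gene values were taken from 1 table. The authors deposited an FPKM with 2 decimals, relative to transcript length and sequencing depth, and an estimated count that was not normalized, both per gene and library. The submitters' processing notes name Bowtie 0.12.2, HISAT2 2.0, StringTie 1.3.0 and the build mm8 without giving their roles, while the gene coordinates are those of human GRCh38, checked against GENCODE. The counting options and strand are not given in the sources used here. Estimated counts summed to 57406966 to 75065752 per library. The value 4 was more frequent (17264 values) than 3 (6764) or 5 (4016), so 1 estimated count need not be 1 read, and the number of fragments per library is not known here.

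The counts were tested with edgeR 4.0.16 (R 4.3.3), TMM normalization and the quasi-likelihood test, on genes with at least 0.5 FPKM in at least 3 libraries of a fit. A call needed a Benjamini-Hochberg adjusted p under 0.05 and a log2 fold change beyond 1 in either direction (no fold limit for the difference between the lines). The paper's methods give this criterion and name no test for the sequencing. The paper reports more differentially expressed genes with honokiol in each line than were called here under any setting. The cause of this was not tested. Alternatives were DESeq2 1.42.0, limma 3.58.1 on log2(FPKM + 0.5) and log2(FPKM + 0.1), RLE normalization, other filters, counts divided by 4, a replicate block and each library left out. Mitochondrially encoded genes left out and both DMSO libraries numbered 1 left out were added after the data were seen. The edgeR fit was tested on simulated data.

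All members and gene lists were chosen with earlier results of these data known. Named from each list were the 3 genes with the highest mean FPKM, any gene called with honokiol, the 2 with the smallest unadjusted p in each line and up to 2 called in each direction between the lines with the largest fold change, of which the text gives a part. For each member the 2 genes most like it by r were taken. Gene positions are from the deposited table, and exon overlaps and 31-base words are from GENCODE. Raw reads were not used here.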

Additional observations from a re-analysis of the deposited data

How the results depend on the processing

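The log2 fold change of CD1D with honokiol kept its sign under all 15 alternatives in THP-1 (1.34 to 1.59) and all 14 in U-937 (0.24 to 0.65), and its difference between the lines under all 22 (−1.25 to −0.82). For CD74 with honokiol in U-937 it ran from −0.66 to 0.37. The signs of HLA-DRB1 (−0.01 to 0.38), HLA-DPA1 (−0.14 to 0.34), HLA-DPB1 (−0.02 to 0.45) and HLA-DRA (−0.33 to 0.13) in THP-1 changed when single libraries were left out.

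The counts of genes called depended on the tool. In THP-1 edgeR called 6 genes, and 0 without a filter (2701 at an unadjusted p under 0.05), 1 with at least 1 FPKM, and 250 with DESeq2. With limma it was 0 on either pseudocount (1972 and 1940 unadjusted). In U-937 the 13 became 223 with DESeq2. For the difference between the lines the 18 became 244 with DESeq2, 2 and 1 with limma on a pseudocount of 0.5 and 0.1, 0 with counts divided by 4 (1462 unadjusted) and 7 without both DMSO libraries numbered 1. The 4730 genes called between the lines with DMSO became 2831 without those libraries. The cause was not tested.

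With each library left out in turn, the count ran from 0 to 43 in THP-1, from 0 to 6 in U-937, from 1 to 22 for the difference and from 3341 to 4210 between the lines. In THP-1 it was 43 without honokiol replicate 1, 1 without DMSO replicate 1, and 0 without DMSO replicate 2 (1557 unadjusted) or honokiol replicates 2 (1143) and 3 (871). In U-937 it was 6 without DMSO replicate 1, 4 without DMSO replicate 3 or honokiol replicate 1, and 0 without DMSO replicate 2 (2035 unadjusted) or honokiol replicates 2 (1638) and 3 (1472). For the difference it was 1 without DMSO replicate 1 or 2 or honokiol replicate 3 of THP-1 or honokiol replicate 2 of U-937. It was 2 without DMSO replicate 3 or honokiol replicate 2 of THP-1. It was 10 without honokiol replicate 1 of THP-1, 8 without DMSO replicate 3 or honokiol replicate 1 of U-937, and 6 without honokiol replicate 3 of U-937.

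Libraries of different groups share only a replicate number. Same-numbered deviations correlated at −0.235 to 0.165 in THP-1, −0.193 to −0.127 in U-937 and 0.061 to 0.186 between the DMSO groups. With a replicate block the counts were 0 in THP-1 (1641 unadjusted), 0 in U-937 (1516 unadjusted), 0 for the difference (1378 unadjusted) and 4662 between the lines. The values of HLA-DMB and, in U-937, of HLA-DRA, HLA-DPA1 and HLA-DPB1 rest on few counts. The part of sequencing depth in this was not tested.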
